A study of Mus musculus with 4 samples.

Results

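The spots described here were chosen as claustrum and endopiriform spots of the mouse forebrain by 4 marker genes, and they numbered 651 of 12601. Visium CytAssist reads gene probes on a grid of barcoded spots laid over a tissue section, and a spot covers several cells. The sections were coronal, from formalin-fixed, paraffin-embedded brains of 4 untreated mice trimmed to show the striatum. The mice were 2 wild-type and 2 Celsr3 heterozygous animals, with no age, sex or strain in the sources used here, and no other allele or agent is named for either group. The spot names carry 4 endings, called barcode sets here, and no label links an ending to an animal. The genotypes were therefore not compared, and every value is given by barcode set.

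A kept spot had at least 500 counts, and its counts were scaled to 10000 and log-transformed. The levels of Ccn3, Nr4a2, Syt17 and Ntng2 were turned into z scores over all kept spots. A member had a mean z of at least 1.2 for these 4 genes and a mean z below 1.5 for Ccn2 and Cplx3, which mark cortical layer 6b. These 6 genes define the members and their levels are not results. All contrasts below compare areas that were drawn from measured levels, so they are descriptions and carry no test. No spread between replicates could be set beside them. Intervals are exact 95% intervals that cover counting error only.

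The claustrum is a thin sheet of mostly excitatory neurons between the insular cortex and the striatum, and the endopiriform nucleus is its ventral neighbour, deep to the piriform cortex. Claustral neurons exchange connections with much of the cortex. Nr4a2, an orphan nuclear receptor, is expressed in the claustrum, the endopiriform nucleus and layer 6b from development onward. Ntng2 encodes netrin-G2, a membrane-anchored ligand of the synaptic adhesion protein encoded by Lrrc4. Ccn3 encodes a secreted matricellular protein, and Syt17 a synaptotagmin-family membrane protein.

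The label held for part of the members. The rule markers were used to divide the members of every barcode set into a Nr4a2/Ntng2-led and a Ccn3/Syt17-led subset. The first subset carried Gnb4, Oprk1, Synpr and Lxn, from a list of 10 claustrum genes outside the rule. Nr2f2 and Slc17a6 of that list were not called higher there than in all other spots, and Car3 and Osr1 were too low to be counted. The second subset had Gnb4, Oprk1, Synpr and Lxn near or below the level of all other spots. Of 7 listed genes of layers 2 to 4, Calb1, Lamp5, Rasgrf2 and Otof were higher there than in the first subset, and Cux1, Rorb and Cux2 were not called. Wfs1, from outside that list, was also higher. Against all other spots, only Cux2 and Rasgrf2 of the 7 were called higher in the second subset. The subsets are called below by their leading markers, and the split was made after the data were seen.

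The upstream promoter bases of Nr4a2 and Ntng2 are shown because this marker pair leads the first subset, and those of Sstr2 because this receptor gene was among the genes most raised there. Each run holds the 250 bases before the annotated start, 5′ to 3′ on the gene's strand, from RefSeq on GRCm38.p6. Nr4a2 lies at chr2:57124004-57124253 and Ntng2 at chr2:29248100-29248349, both on the minus strand, and Sstr2 at chr11:113619077-113619326 on the plus strand. Capitals mark a TATA box (TATAAA on either strand) and a full cAMP response element (TGACGTCA, which reads the same on both strands).
Nr4a2: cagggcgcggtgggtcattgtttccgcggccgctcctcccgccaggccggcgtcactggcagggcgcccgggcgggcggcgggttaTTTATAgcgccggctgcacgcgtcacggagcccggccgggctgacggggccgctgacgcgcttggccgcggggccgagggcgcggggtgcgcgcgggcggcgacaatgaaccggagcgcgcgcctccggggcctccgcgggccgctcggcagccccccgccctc
Ntng2: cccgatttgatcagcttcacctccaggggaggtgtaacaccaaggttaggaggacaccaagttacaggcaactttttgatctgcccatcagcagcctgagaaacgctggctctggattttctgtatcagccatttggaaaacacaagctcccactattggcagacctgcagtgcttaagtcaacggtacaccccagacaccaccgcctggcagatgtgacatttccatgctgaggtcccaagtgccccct
Sstr2: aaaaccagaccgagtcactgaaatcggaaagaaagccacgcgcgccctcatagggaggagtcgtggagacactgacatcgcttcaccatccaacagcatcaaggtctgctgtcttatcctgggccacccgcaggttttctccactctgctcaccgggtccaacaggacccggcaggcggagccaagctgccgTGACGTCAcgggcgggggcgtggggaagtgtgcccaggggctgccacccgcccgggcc

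The TATA letters in the Nr4a2 run began 164 bases before the start, and the response element in the Sstr2 run 58 bases before it. The GC content of the runs was 80.0% for Nr4a2, 63.6% for Sstr2 and 52.4% for Ntng2. TATAAA was present in 12.4% of all 32851 such promoter windows and TGACGTCA in 1.55%. The 8-letter response element of Nr4a receptors, AAAGGTCA, searched on both strands, was in none of the 3 runs and in 1.34% of all windows. Matching by symbol found promoters for 79 of the 107 genes that were higher in the first subset and 65 of the 87 that were lower. AAAGGTCA was in 0 of the 107 windows of the former and 0 of the 92 windows of the latter, against 76 of 10162 windows of the genes tested. TGACGTCA was in 3 of those 107 windows (Hs3st2, Ptpru and Sstr2), in 0 of the 92, and in 2.58% of the windows of the genes tested. These are matches of letters in short windows and not sites.

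Members numbered 98 in set 1, or 3.21% of its 3055 kept spots, with an exact (Clopper-Pearson) interval from 2.61% to 3.90%. Set 2 held 203 among 2808 kept spots, a share of 7.23% with bounds of 6.30% and 8.25%. Set 3 held 118 among 3444, or 3.43% (2.84% to 4.09%), and set 4 held 232 among 3294, or 7.04% (6.19% to 7.97%). Sets 2 and 4 lay above sets 1 and 3 with no overlap of intervals. With z taken within each set in place of over all spots, the shares were 4.91%, 5.20%, 5.02% and 5.43%, and that gap between the sets was gone. Scaling within a set gives each marker the same mean and spread in every set, so similar shares are partly built in. The cause of the gap was not tested. The median count per member was 63104, 49807, 63654 and 29196 in sets 1 to 4, against 52481, 38182, 44972 and 26444 over all kept spots. Summed over members the sets held 7108111, 10273348, 7605844 and 7012179 counts. The 651 members had 643 different barcodes, of which 8 occurred in more than 1 set. A barcode names a place on the grid.

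The scores ran close to the threshold. Set by set the lowest member score was 1.201, 1.201, 1.202 and 1.201, and the median 1.54, 1.56, 1.61 and 1.75. The highest score among spots outside was 1.1997, 1.198, 1.198 and 1.196. From 12.7% to 21.4% of the members of a set scored below 1.3, and 22 to 35 spots of a set lay just outside, between 1.1 and 1.2. The limit on Ccn2 and Cplx3 kept out 31, 46, 24 and 67 spots whose marker score had passed. Of the rule genes, Ccn3 had 0 counts in 1, 3, 0 and 8 members, whereas Nr4a2 had 0 counts in 26 of 98, 63 of 203, 15 of 118 and 76 of 232 members. A member could thus pass without Nr4a2.

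When a marker was dropped from the rule, it was still higher in the spots chosen by the remaining markers. Its ratio to all other spots was then 3.16 to 3.85 for Ccn3, 2.39 to 5.99 for Nr4a2, 1.79 to 2.68 for Syt17 and 2.91 to 4.51 for Ntng2 over the 4 sets. These ratios describe how far the 4 genes go together over spots.

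The members were split by whether the mean z of Nr4a2 and Ntng2 or that of Ccn3 and Syt17 was larger. The Nr4a2/Ntng2-led subset held 45, 65, 64 and 96 spots in sets 1 to 4, and the Ccn3/Syt17-led subset 53, 138, 54 and 136. The first subset was 45.9%, 32.0%, 54.2% and 41.4% of the members of sets 1 to 4, and 41.5% of all members with an exact interval from 37.7% to 45.4%. As a share of all kept spots it was 1.47%, 2.31%, 1.86% and 2.91%, and the second subset was 1.73%, 4.91%, 1.57% and 4.13%. The larger share of members in sets 2 and 4 thus lay mostly in the Ccn3/Syt17-led subset. Of 651 members, 45 lay within 0.5 of equal scores. This count rests on the rule markers themselves, so it describes the split and is no evidence of separate groups. The median count per spot was close in both, at 62717, 47494, 65210 and 30809 in the first and 63492, 52794, 59231 and 28764 in the second.

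**Figure D1:**
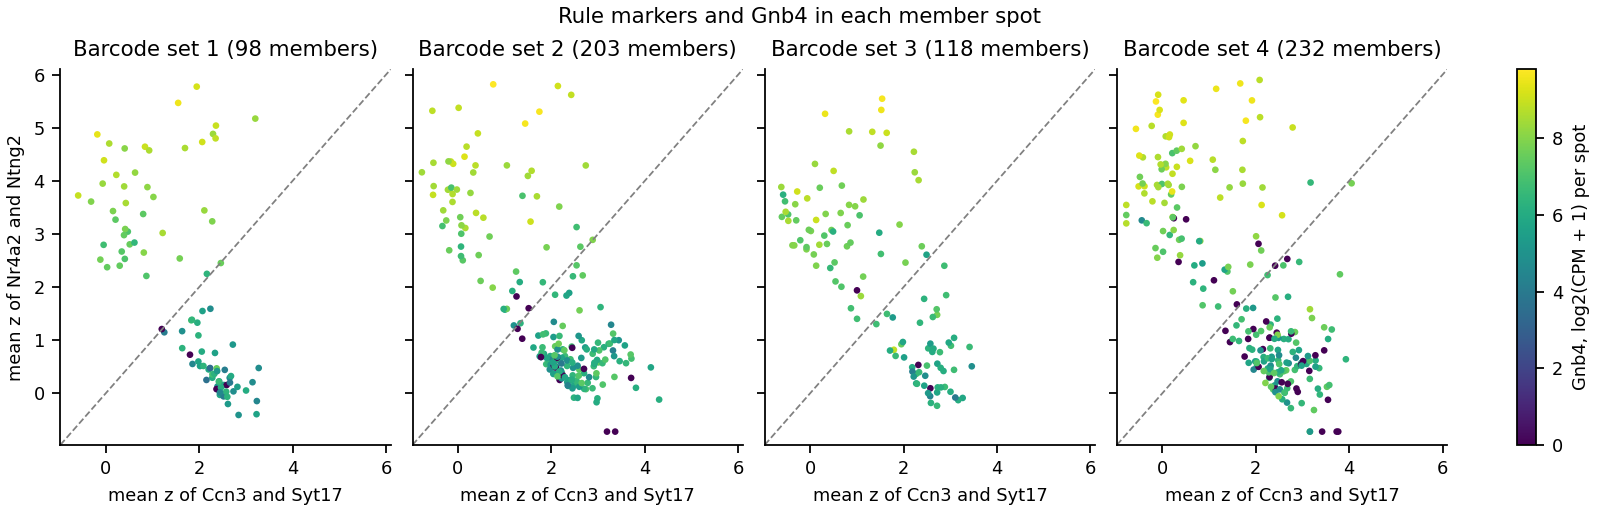
Each point is a member spot, placed by its mean z of Ccn3 and Syt17 (x axis) and of Nr4a2 and Ntng2 (y axis) and coloured by its Gnb4 level, as log2 of counts per 1000000 plus 1. The lower left edge is the threshold of the rule. In each of the 4 panels most points above the dashed line of equal scores have higher Gnb4 than most points below it. The line is drawn on rule markers, and 45 of 651 members lie within 0.5 of it.

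The levels of the rule markers are given only to describe the subsets, since the split was made on these genes. Levels below are counts per 1000000 (CPM), summed over the spots of an area in a set. Nr4a2 was at 396, 320.2, 332 and 424 CPM in sets 1 to 4 in the first subset and at 25.7, 18.01, 27.3 and 31.99 CPM in the second. All other spots had 12.8, 18.02, 13.8 and 23.05 CPM, so the second subset was at 0.999 to 2.01 times that level. Ntng2 was at 539, 605, 438 and 605 CPM in the first subset and 121, 175, 144 and 159.97 CPM in the second, and Ccn3 at 154, 129, 141 and 113 against 329, 344, 359 and 377 CPM. Syt17 in the first subset was at 61.1, 63.8, 43.2 and 50.04 CPM, or 1.09 to 1.73 times the 36.9, 36.9, 34.4 and 46.1 CPM of all other spots, and at 177, 202, 198 and 204 CPM in the second.

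Genes known from the claustrum that the rule did not use were then measured. The list had 10 genes, of which Smim32 was not analysed here, and 7 passed a filter of a mean of at least 10 CPM. A gene is called higher or lower below where log2(CPM + 1) differed by at least 1, a 2-fold change, in the same direction in all 4 sets. That scale understates the change of low genes. The filter takes the mean over the areas of a contrast, so a gene can pass through the area where it is high alone. Its call is then partly built in. Between the subsets this holds for Oprk1, Foxp2, Syt6, Col11a1, Lypd6b, Chrm2, Pdyn, Egr2 and Otof, among others. Against all other spots it holds for Smoc2, Ptgs2 and, in the first subset, Rxfp1, among others. In spots, more cells of a type and more RNA per cell cannot be told apart.

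Gnb4, which encodes a beta subunit of heterotrimeric G proteins, was at 174, 146, 179.7 and 197 CPM in the members of sets 1 to 4 and at 60.3, 68.7, 55.8 and 67.7 CPM in all other spots. Members of every set were above the other spots, by 2.12 to 3.22 times. Within the members the difference was larger, with 315, 312, 266 and 366 CPM in the Nr4a2/Ntng2-led subset and 50.1, 75.2, 79.5 and 76.7 CPM in the Ccn3/Syt17-led subset. The groups of 4 values did not overlap, and the second subset was at 0.831 to 1.42 times all other spots. Over single spots of the first subset the median Gnb4 level was 266, 319, 223 and 306 CPM, and 1, 2, 1 and 6 spots had 0 counts.

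Oprk1, the kappa opioid receptor gene, was at 49.1, 40.3, 49.3 and 77.5 CPM in the Nr4a2/Ntng2-led subset. In the Ccn3/Syt17-led subset it was at 3.98, 2.77, 5.695 and 2.198 CPM, below the 11.3, 13.9, 11.5 and 17.2 CPM of all other spots. The first subset was 2.898 to 4.51 times the other spots and the second 0.128 to 0.495 times. Over the members as a whole Oprk1 was at 25.2, 13.9, 29.2 and 33.5 CPM, above the other spots in sets 1, 3 and 4 and level with them in set 2, and it was not called.

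Synpr, which encodes the synaptic vesicle protein synaptoporin, was at 639.5, 606, 673 and 772 CPM in the Nr4a2/Ntng2-led subset, 141, 196, 225 and 158 CPM in the Ccn3/Syt17-led subset and 168, 216, 212 and 155 CPM elsewhere. Lxn, the gene of the carboxypeptidase inhibitor latexin, was at 180.1, 109, 134 and 128 CPM in the first subset and 51.4, 37.96, 46.7 and 32.2 CPM in the second. For both genes the first subset lay above the second and above all other spots in every set, and the second was within 0.876 to 1.03 times the other spots for Lxn and 0.836 to 1.06 times for Synpr. Between the subsets the call of Synpr was lost without Ccn3 in the score (least extreme log2 ratio 0.41) and that of Lxn without Syt17 (0.98). Gng2, a G protein gamma subunit gene, was 2.42 to 2.97 times the other spots in the first subset and 1.24 to 1.47 times in the second. Car3 and Osr1 did not pass the filter over all spots. Their levels were 23.4, 9.82, 16.1 and 12.7 CPM for Car3 and 7.49, 5.89, 4.396 and 8.91 CPM for Osr1 in the first subset, against 1.59, 0.693, 1.14 and 1.71 and 0.795, 1.52, 1.14 and 0.733 CPM in the second.

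Leaving Nr4a2 out of the score moved the least extreme log2 ratio of Gnb4 between members and all other spots from 1.07 to 0.43, and leaving out set 4 moved it to 0.998. The call was also lost without Ntng2 (0.91) and at a marker threshold of 1.0 (0.84). Between the subsets, the call of Gnb4 held under all 17 alternatives.

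By count, 1 of the 7 listed genes that passed was higher in the members than in all other spots (Gnb4), and 0 were lower. The background was 0.279% of 10022 genes higher and 1.84% lower. The list's median log2 ratio was 1.06, 0.55, 1.02 and 0.93 in sets 1 to 4, against -0.05, -0.04, -0.05 and -0.07 over all genes tested. In the Nr4a2/Ntng2-led subset 5 of 7 were higher than in all other spots (background 0.6% of 9995 genes), with list medians of 1.71, 1.42, 1.54 and 1.77. In the Ccn3/Syt17-led subset 0 of 6 were higher (background 0.599% of 10022 genes), with medians of -0.26, -0.11, 0.06 and -0.08. Nr2f2 and Slc17a6 were the listed genes that passed without a call in the first subset. Slc17a6, a vesicular glutamate transporter of thalamus and amygdala neurons, was at 24.6, 19.97, 22.2 and 34.96 CPM there, against 91.95, 15.9, 38.98 and 96.5 CPM in all other spots.

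**Figure D2:**
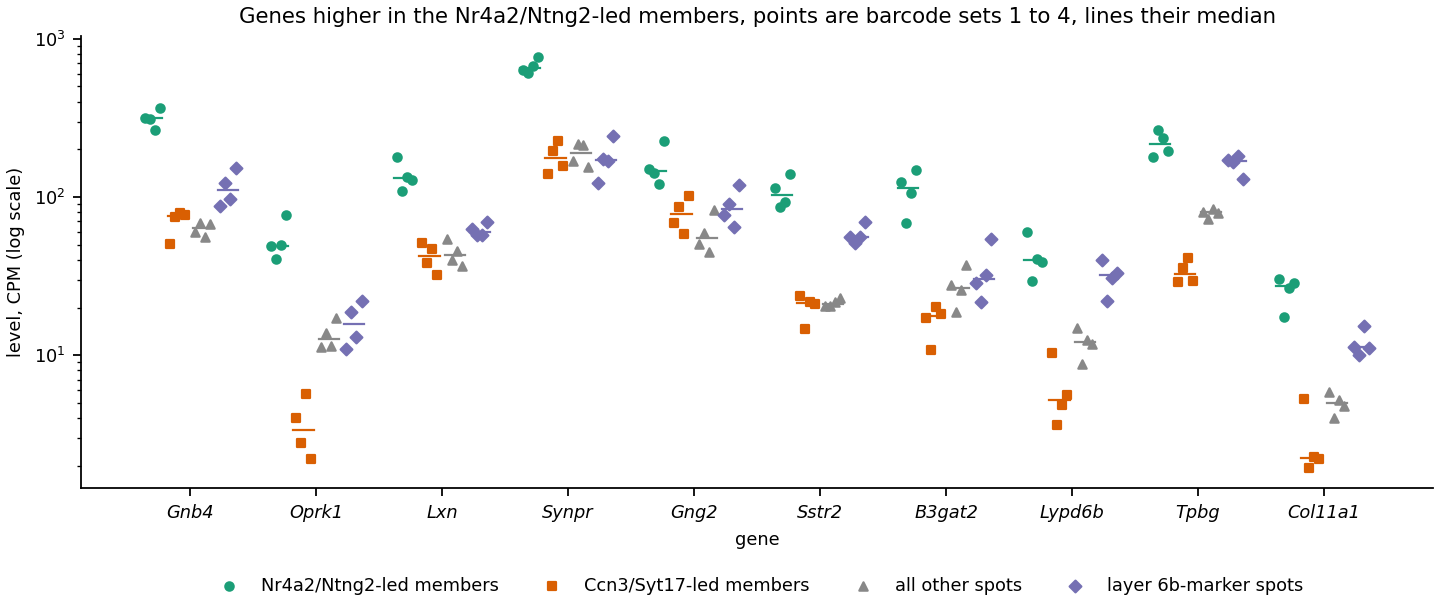
Levels in CPM on a log axis of 10 genes in the Nr4a2/Ntng2-led members, the Ccn3/Syt17-led members, all other spots and the layer 6b-marker spots, with a point for each of the 4 barcode sets and a line at their median. The points of the Nr4a2/Ntng2-led members lie above those of the Ccn3/Syt17-led members for every gene shown, as for Oprk1 at 40.3 to 77.5 against 2.198 to 5.695 CPM.

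A score over the 9 measured genes of the claustrum list was also counted spot by spot. It uses genes described above in the same spots, so it restates their levels and adds no support. Spots whose mean z over these genes was at least 1.2, by a threshold set after the data were seen, numbered 191 of 12601. Among them were 112 of the 270 Nr4a2/Ntng2-led members (41.5%) and 1 of the 381 Ccn3/Syt17-led members. Most of the first subset thus did not reach the score. Members were 59.2% of the spots with this score, and the score was reached by 17.4% of members. A further 43 such spots were layer 6b-marker spots, of which 28 were in set 4.

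Comparing all genes between the subsets, 107 of 9792 genes (1.09%) were at least 2-fold higher in the Nr4a2/Ntng2-led subset in every set and 87 (0.888%) at least 2-fold lower. The genes with the largest difference in their weakest set were Gm45623, a predicted gene, and Oprk1, followed by Tpbg, Lypd6b, Trbc2, B3gat2, Col11a1, Scn4b, Olfm3 and Sstr2. Tpbg, which encodes a leucine-rich repeat glycoprotein of the cell surface, was at 178, 263, 237 and 195 CPM in the first subset and 28.9, 35.7, 41.3 and 29.3 CPM in the second. With 80.3, 72.1, 83.9 and 79.5 CPM in all other spots, the first subset lay above and the second below the rest in every set. B3gat2, a glucuronyltransferase gene, was at 124, 68.4, 106 and 148 against 17.2, 10.8, 20.2 and 18.3 CPM, a ratio of 5.22 to 8.102. Sstr2, a somatostatin receptor gene, was at 114, 86.1, 93.3 and 141 against 23.6, 14.5, 21.6 and 21.003 CPM, and was 4.24 to 6.08 times all other spots in the first subset.

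Rgs12, a regulator of G protein signalling, was at 252, 239, 226 and 261 CPM in the first subset and 53.6, 74.7, 70.9 and 71.3 CPM in the second. At 4.13 to 6.79 times all other spots it stood beside Gnb4 and Sstr2 among the genes most above the rest there. Col11a1, a fibrillar collagen chain gene, was at 30.3, 17.4, 26.6 and 28.4 against 5.303, 1.94, 2.28 and 2.198 CPM, and Lypd6b, a membrane-tethered modulator of nicotinic receptors, at 59.6, 29.5, 40.3 and 39.1 against 10.3, 3.602, 4.84 and 5.62 CPM. Rxfp1, the relaxin receptor gene, was at 47.9, 4.91, 28.3 and 8.23 CPM in the first subset and 4.66, 0.684, 5.18 and 0.561 CPM in all other spots. Its level differed several-fold between sets inside and outside the subset alike, and its ratio to the other spots was 5.47 to 14.7.

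Layer 6 genes also separated the subsets. Of 7 listed layer 6 corticothalamic genes, 4 were higher in the Nr4a2/Ntng2-led than in the Ccn3/Syt17-led subset (Foxp2, Tle4, Syt6 and Hs3st4), beside a background of 1.09%, with list medians of 1.44, 1.59, 1.40 and 1.296 against -0.0015, -0.0052, -0.013 and -0.0077 over all genes tested. Foxp2, a forkhead transcription factor gene, was at 25.5, 26.2, 30.5 and 21.6 CPM in the first subset, near the 25.7, 25.98, 22.6 and 23.2 CPM of all other spots, and at 5.83, 1.94, 4.84 and 4.64 CPM in the second. Syt6 was at 44.4, 44.9, 45.4 and 42.8 against 10.3, 4.57, 4.27 and 6.11 CPM. Between the subsets, Foxp2 and Syt6 passed the filter only through the first subset, so their part in the count of calls is no support. Without Ccn3 in the score the calls of Foxp2, Tle4 and Syt6 were lost, with least extreme log2 ratios of 0.94, 0.57 and 0.75. Foxp2 and Tle4 each lost the call under 3 of 17 alternatives and Syt6 under 2, while Hs3st4 was not run through them. None of the 7 was called higher in the first subset than in all other spots, and Foxp2, Tle4 and Syt6 were lower in the second (background 2.36% of 10022 genes lower).

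The Ccn3/Syt17-led subset carried genes of upper cortical layers. Of 7 listed layer 2 to 4 genes, Rasgrf2, Calb1, Lamp5 and Otof were higher there than in the Nr4a2/Ntng2-led subset (background 0.888%). Cux1, Rorb and Cux2 were not called between the subsets, with a least extreme log2 ratio of -0.42 for Cux2. Against all other spots, Cux2 and Rasgrf2 were higher in the Ccn3/Syt17-led subset (background 0.599% of 10022 genes). Calb1, the gene of the calcium buffer calbindin, was at 487, 677, 413 and 584 CPM, against 135, 249, 157 and 215 CPM in the first subset. All 4 values lay above those of the first subset, and above the 289, 386, 315 and 371 CPM of all other spots in the same set, by 1.31 to 1.75 times. Rasgrf2, a Ras exchange factor gene, was at 142, 235, 183 and 194 against 49.7, 79.6, 43.96 and 52.1 CPM, and Lamp5 at 371, 427, 216 and 405 against 135, 204, 99.7 and 186 CPM. The call of Lamp5 was lost without set 1, with a least extreme log2 ratio of -0.98, and under 4 other alternatives. That of Rasgrf2 was lost without Ccn3 in the score (-0.87) and that of Calb1 without Nr4a2 (-0.99). Otof was at 9.81, 30.2, 9.97 and 27.4 against 1.498, 4.91, 1.95 and 2.06 CPM, and its direction turned when Ccn3 was left out of the marker score. In this contrast it passed the filter only through the Ccn3/Syt17-led subset.

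The genes furthest below in the first subset were Ndst4, Wfs1, Plxnd1, Ankfn1, Lypd1, Bhlhe22, Tafa1, Pdzrn3, Otof and Igfn1. Wfs1, which encodes the endoplasmic reticulum protein wolframin, was at 204, 223, 189 and 215 CPM in the Ccn3/Syt17-led subset and 42.3, 43.2, 34.4 and 35.3 CPM in the Nr4a2/Ntng2-led subset. With 92.9, 92.3, 90.7 and 89.4 CPM in all other spots, it lay above the rest in the former and below it in the latter in every set. Plxnd1, a semaphorin receptor gene, was at 121, 216, 159 and 247 against 20.4, 50.1, 21.7 and 34.3 CPM. Bhlhe22, a transcription factor gene of cortical projection neurons, was at 49.6, 142, 96.8 and 169.7 against 12.3, 28.2, 9.53 and 22.6 CPM. Tafa1, a secreted protein gene, was at 194, 172, 217 and 201 against 15.6, 44.9, 16.6 and 18.2 CPM and only 3.73, 8.81, 2.54 and 5.56 CPM in layer 6b-marker spots. Slc30a3, the zinc transporter that loads synaptic vesicles, was at 313, 377, 386 and 429 against 85.4, 123, 72.1 and 93.2 CPM, a call lost without Ccn3 in the score (-0.97).

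**Figure D3:**
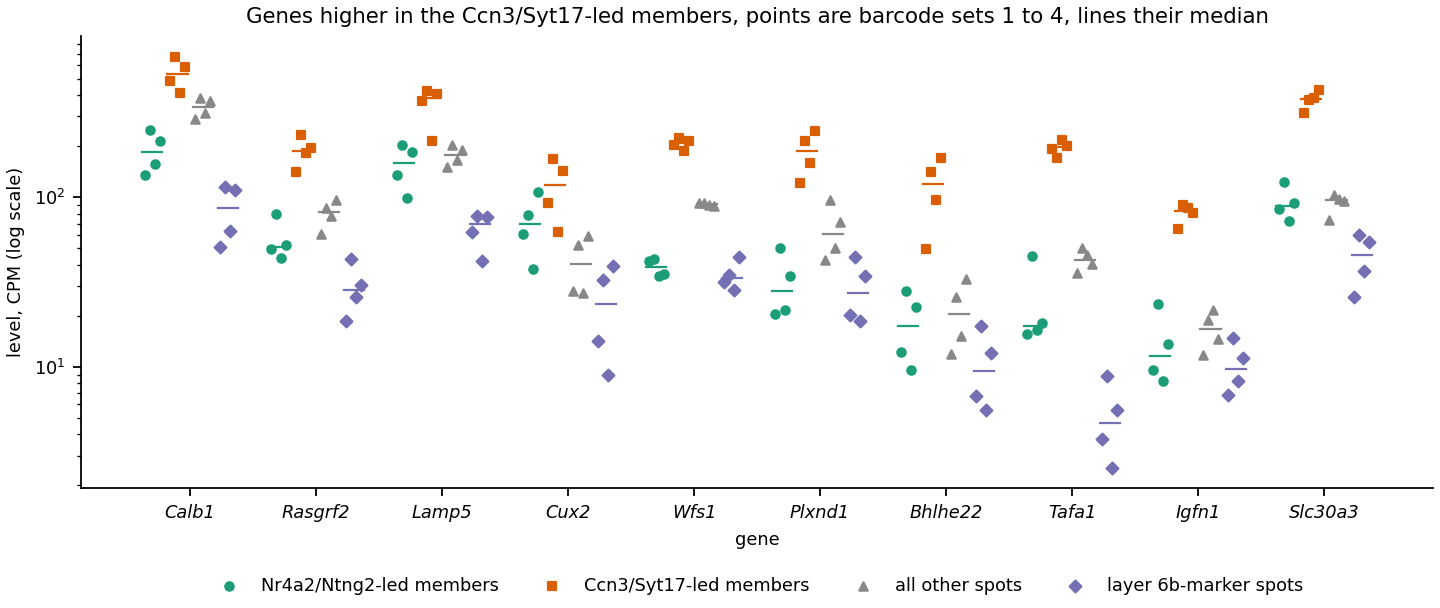
Levels in CPM on a log axis of 10 genes in the Nr4a2/Ntng2-led members, the Ccn3/Syt17-led members, all other spots and the layer 6b-marker spots, with a point for each of the 4 barcode sets and a line at their median. Within each barcode set the Ccn3/Syt17-led members lie above the Nr4a2/Ntng2-led members for every gene shown, as for Wfs1 at 189 to 223 against 34.4 to 43.2 CPM.

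Spots with a mean z of at least 1.2 over Cux2, Rasgrf2, Lamp5 and Otof, a threshold set after the data were seen, were 155 of the 381 Ccn3/Syt17-led members and 4 of the 270 Nr4a2/Ntng2-led members. By set, this was 32.1%, 55.1%, 14.8% and 39.7% of the Ccn3/Syt17-led members. Over all kept spots the shares by set were 2.91%, 12.5%, 3.63% and 10.5%, so sets 2 and 4 were high there too. The score left out Cux1, Rorb and Calb1 of the same list. It was built from genes described above in the same spots, so it restates their levels and adds no support.

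Myelin moved with the split. Mbp, the myelin basic protein gene, was at 2806, 2999.9, 2173 and 3279 CPM in the Nr4a2/Ntng2-led subset and 907, 549.95, 617 and 834 CPM in the Ccn3/Syt17-led subset, against 7192, 5116, 3702 and 6793 CPM in all other spots. Of 7 myelin genes, 6 were higher in the first subset than in the second (background 1.09%). Per spot, the median summed level of the 7 was 4908 to 6017 CPM in the first and 701 to 1576 CPM in the second. In all other spots it was 6559 to 11505 CPM. Each of these 6 calls was lost under 1 to 4 of 17 alternatives, which left a marker out of the score or raised the threshold. In the second subset 7 of 7 were lower than in all other spots (background 2.36%), and in the first 0 of 7 (background 1.19%). The members as a whole had 7 of 7 lower (background 1.84%), of which Mbp, Mag, Cnp and Mal lost the call without Ccn3 in the score, with least extreme log2 ratios of -0.98, -0.94, -0.94 and -0.998. The first 3 of these also lost it without Syt17. The part of myelinated tissue in the differences between the subsets was not tested.

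Against all other spots, the members as a whole had 28 genes at least 2-fold higher. The first in order of the weakest set were Smoc2, Ptgs2, Rtn4rl2, Nwd2, Gm45623, Bdnf, Frzb, Bhlhe22, Nptxr and Ak5. Each of the 28 was also called in at least 1 of the subsets. In both subsets 9 were called, which were Smoc2, Rtn4rl2, Bdnf, Ak5, Slc17a7, Cck, Rasl10a, Bmp3 and Kcnv1. Another 6 were called in the Nr4a2/Ntng2-led subset alone (Gnb4, Rgs12, Podn, Crhbp, Rspo2 and Gm45623), and 13 in the Ccn3/Syt17-led subset alone. Each subset had 60 genes higher than all other spots, which was 0.6% of 9995 and 0.599% of 10022 genes tested. The lists had 9 genes in common, 15% of either. Of 119 genes lower in the first subset and 237 in the second, 79 were common, 66.4% and 33.3% of the lists.

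Smoc2, which encodes a secreted calcium-binding matrix protein, was at 23.9, 50.1, 42.99 and 43.9 CPM in the members and 4.46, 6.95, 7.13 and 7.03 CPM in all other spots, 5.37 to 7.21 times. It was above the other spots in both subsets, by 4.14 to 5.99 times in the first and 4.82 to 8.27 times in the second, and it was at 5.402, 9.41, 7.26 and 10.1 CPM in layer 6b-marker spots. Bdnf, the gene of the neurotrophin BDNF, was at 108, 118, 53.2 and 104 CPM against 24.6, 40.99, 19.7 and 37.8 CPM. Its levels in the subsets were close, with the first at 0.862 to 1.203 times the second. Rtn4rl2, a Nogo receptor family gene, was at 210.5, 268, 175 and 276 against 47.8, 86.005, 48.6 and 64.5 CPM, and Ak5, a brain adenylate kinase gene, at 289.8, 271, 287 and 265 against 114, 106, 115 and 109 CPM. The 4 ratios of Ak5 to all other spots kept within 2.44 to 2.55.

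Ptgs2, the inducible cyclooxygenase gene, was at 18.7, 28.8, 19.5 and 32.1 CPM in the members and 4.52, 6.12, 4.94 and 6.91 CPM elsewhere. It was higher in the Ccn3/Syt17-led subset, at 25.5, 35.2, 30.2 and 44.4 CPM, than in the Nr4a2/Ntng2-led subset, at 11.1, 13.8, 10.3 and 14.7 CPM. Frzb, a secreted Wnt antagonist gene, was at 28.1, 64.4, 67.3 and 151 against 8.43, 24.4, 18.03 and 39.7 CPM, and Nptxr, a receptor for neuronal pentraxins, at 789, 1169, 833 and 1296 against 317, 399, 328 and 475 CPM. Frzb differed more between barcode sets than between members and other spots, so its ratio of 2.64 to 3.81 rests on comparison within a set.

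**Figure D4:**
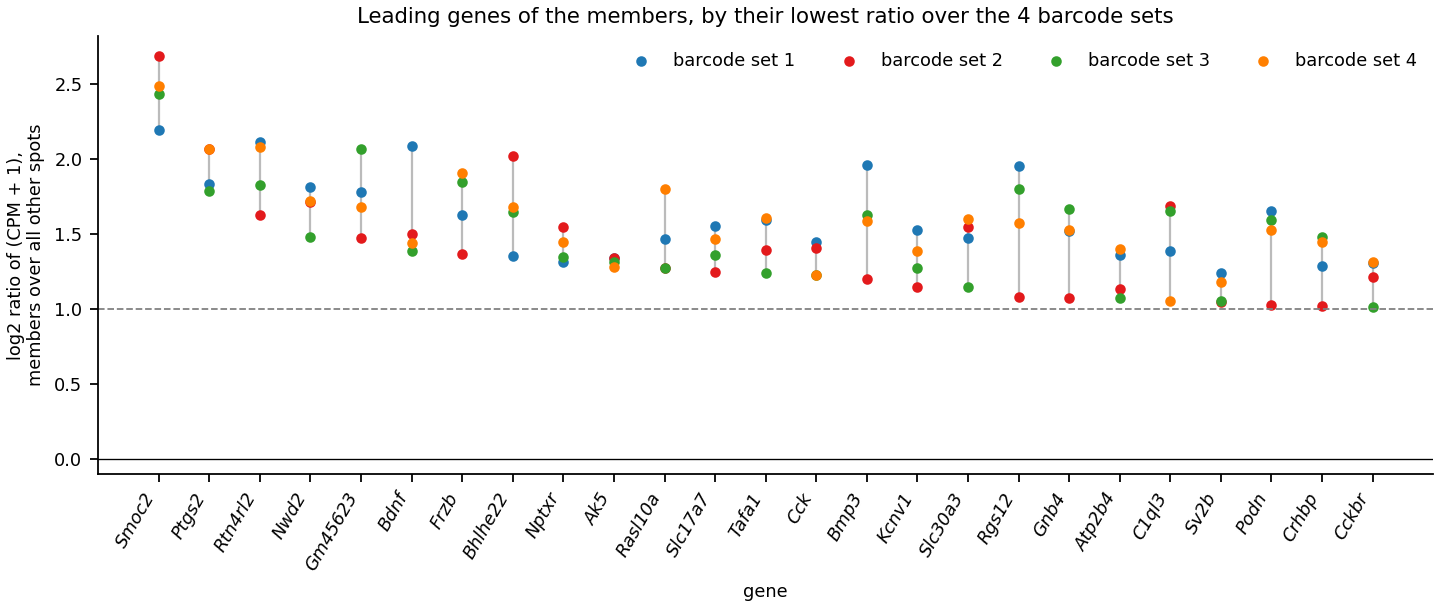
The log2 ratio of CPM + 1 between members and all other spots for the 25 genes with the highest ratio in their weakest barcode set, with a point per set and a grey line over their range. All points lie above the dashed line at a 2-fold ratio, and Smoc2 is furthest to the left. Its ratios of plain CPM, which are not the plotted values, were 5.37 to 7.21.

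The members had the transmitter genes of cortical excitatory neurons. Slc17a7, the vesicular glutamate transporter of cortical neurons, was at 3147, 2839, 3110.5 and 2809.8 CPM in the members and 1072, 1196, 1213 and 1014 CPM in all other spots. It was close in both subsets, with the first at 1.03 to 1.15 times the second, and in layer 6b-marker spots was at 3303, 2842, 2716 and 2483 CPM. Of 8 listed genes of glutamatergic and cortical identity, Slc17a7 and Slc30a3 were higher in the members (background 0.279%). List medians were 1.46, 0.92, 0.93 and 1.22. The call of Slc30a3 was lost under 4 of 15 alternatives. The least extreme log2 ratio of Slc30a3 was then 0.32 without Ccn3, 0.55 without Syt17, 0.72 at a threshold of 1.5 and 0.97 with no layer 6b limit. In the Nr4a2/Ntng2-led subset Slc17a7 and the transcription factor genes Tbr1 and Neurod6 were higher than in all other spots. Tbr1 was at 115, 151, 117 and 216 CPM there and 53.6, 82.4, 51.8 and 88.4 CPM in the Ccn3/Syt17-led subset. Cck, the cholecystokinin gene, which excitatory cortical neurons also express, was at 1509, 1604, 1189 and 1579.7 CPM in members and 553, 605, 508 and 673 CPM elsewhere, and Cckbr, a receptor for it, at 107, 113, 85.3 and 114 against 42.4, 48.4, 41.8 and 45.4 CPM. Rspo2, a Wnt pathway agonist gene listed for the basolateral amygdala, was 2.07 to 3.601 times all other spots in the members, while Lmo3 of the same list was not called. The call of Rspo2 was lost without Nr4a2 in the score (0.84), without Ntng2 (0.97) and at a threshold of 1.0 (0.96).

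Of 9 inhibitory neuron genes, Cck was higher in the members (background 0.279%). Gad2 and Slc32a1, which serve GABA synthesis and its loading into vesicles, were lower in the members (background 1.84%). Gad2 was at 208, 141, 209 and 139 CPM against 531, 450.4, 487 and 361 CPM. Vip was at 96.5, 108, 58.9 and 64.2 CPM in the Ccn3/Syt17-led subset and 26.6, 29.3, 22.2 and 19.3 CPM in all other spots, and was called higher in that subset.

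The genes furthest below all other spots were Oxt, Gal, Arhgap36, Clic6, Ecel1, Dlk1, Zic1, Adora2a, Gpr101 and Sh3rf2. Oxt, the oxytocin gene of hypothalamic neurons, was at 1.55, 1.75, 0.9203 and 2.42 CPM in members and 516, 230.1, 138 and 799 CPM elsewhere, with 7 to 18 counts in the members of a set. Clic6, abundant in the choroid plexus, was at 3.94, 1.85, 2.89 and 4.71 against 82.8, 67.6, 101 and 52.98 CPM. Of 9 striatal projection neuron genes that passed the filter, 9 were lower by summed level (background 1.84%). Adora2a was at 7.88, 5.94, 12.9 and 6.85 against 94.5, 125, 108 and 63.4 CPM. Over single spots the median summed level of the list was 513 to 747 CPM in members and 514 to 763 in other spots. A typical other spot thus held about as much of these genes as a typical member.

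Astrocyte, microglia and vessel genes gave 0 calls between members and all other spots among 5, 5 and 2 genes that passed. The median over spots of the summed astrocyte level was 564 to 808 CPM in members and 806 to 1057 CPM in other spots, and that of microglia 204 to 246 against 213 to 247 CPM. Gfap, the astrocyte filament gene, was lower in the Nr4a2/Ntng2-led subset, at 23.7, 32.1, 13.4 and 32.2 CPM against 165, 89.9, 96.999 and 115 CPM in all other spots.

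**Figure D5:**
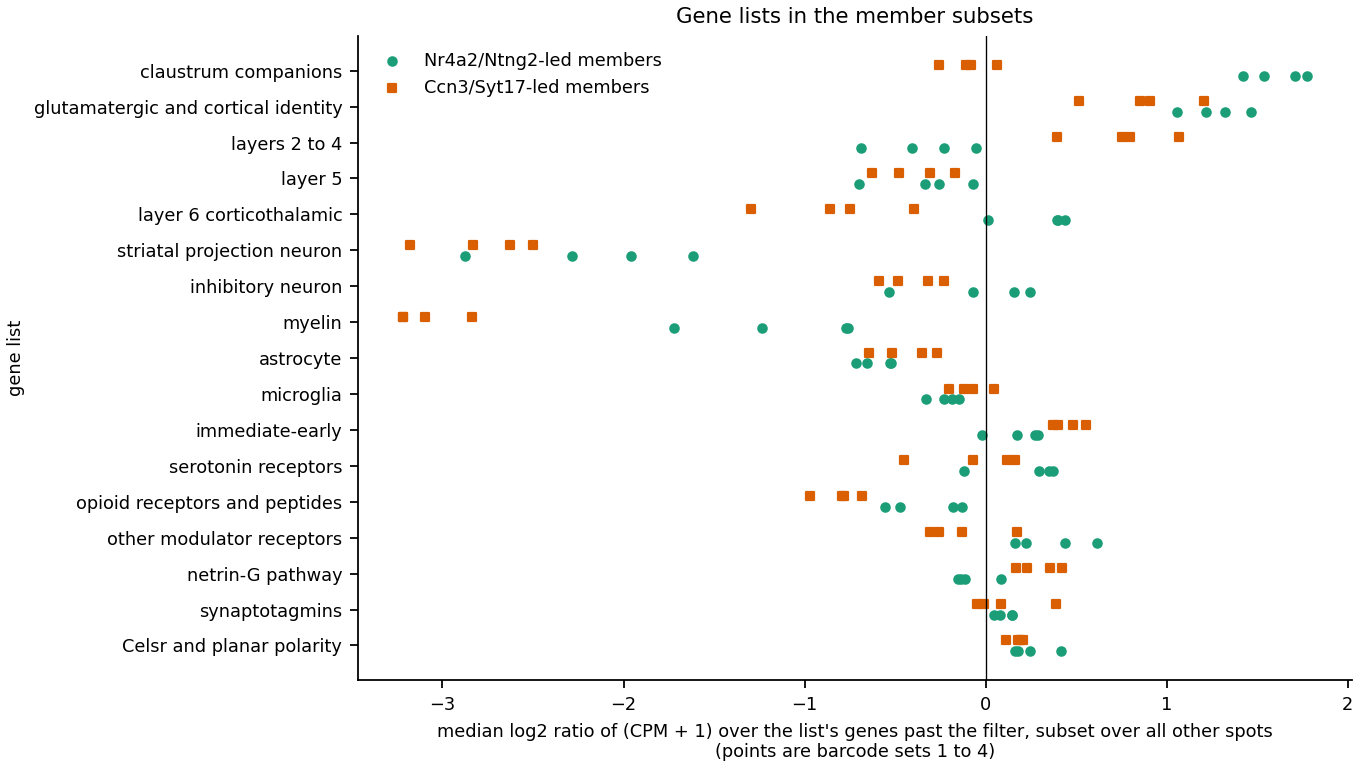
Median log2 ratio of CPM + 1 over the genes of each list that passed the filter, for the Nr4a2/Ntng2-led and the Ccn3/Syt17-led members over all other spots, with a point for each of the 4 barcode sets. The subsets part at the claustrum companions (1.42 to 1.77 against -0.26 to 0.06), layers 2 to 4, layer 6 and myelin, and lie close for the Celsr and synaptotagmin lists.

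The next comparison set the members against deep cortical areas. Layer 6-marker spots, with a mean z of at least 1.2 for Rprm, Syt6 and Hs3st4, numbered 491. Layer 6b-marker spots, with a mean z of at least 1.5 for Ccn2 and Cplx3, numbered 711. The layer 6b-marker spots include 31, 46, 24 and 67 spots of sets 1 to 4 that had passed the marker score of the members. Against layer 6-marker spots, 60 of 9798 genes (0.612%) were higher in members and 53 (0.541%) lower. Cux2, Calb1, Bhlhe22, Tafa1 and Neurod1 were among the first 10 of the former, and Krt80, Urah, Arhgap25 and Myl4 led the latter. Cux2, a homeobox gene of upper layers, was at 78.1, 142, 49.2 and 128 CPM in members and 7.199, 16.4, 7.73 and 25.6 CPM in layer 6-marker spots. Of the 4 layer 6 genes not used to choose those spots, Foxp2, Tle4 and Fezf2 were lower in members. Tle4, a transcriptional corepressor gene, was at 55.3, 23.2, 49.8 and 26.1 CPM in members against 149, 84.5, 136 and 66.9 CPM. Of the claustrum list, Synpr and Slc17a6 were higher in members, Synpr at 375, 318, 466 and 413 against 72.3, 115, 69.3 and 111 CPM.

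Against layer 6b-marker spots, 88 of 9933 genes (0.886%) were higher in members and 220 (2.21%) lower. Myelin genes were 7 of 7 lower against both areas, and they made up much of the head of this list, with Mobp at 504, 262, 399.8 and 381 CPM in members, 3399.8, 2637, 2652 and 2899 CPM in layer 6b-marker and 1729.6, 1343, 1258 and 1113 CPM in layer 6-marker spots. Nxph4, a neurexophilin gene of layer 6b, and Lpar1 were the layer 6b genes outside the rule that passed the filter, and both were lower in members. Nxph4 was at 8.3004, 2.53, 10.5 and 3.57 against 90.9, 55.2, 72.9 and 42.4 CPM. Higher in members were Tafa1, Cartpt, Slc30a3, Pdzrn3 and Tafa2, with Cartpt, the gene of a neuropeptide precursor, at 32.1, 54.997, 59.3 and 66.2 against 4.89, 9.61, 5.56 and 9.89 CPM. Of the claustrum list 0 of 7 were called between members and layer 6b-marker spots, an area that includes spots which passed the marker score. In the Nr4a2/Ntng2-led subset, levels stood above those spots in every set for Gnb4, at 315, 312, 266 and 366 against 87.6, 123, 97.7 and 153 CPM, and for Oprk1, at 49.1, 40.3, 49.3 and 77.5 against 10.9, 18.6, 12.9 and 21.8 CPM. Nr4a2, a rule gene, was at 126, 162, 109.6 and 178 CPM in layer 6b-marker spots, with those that passed the marker score included.

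Receptors for modulators differed between the subsets in single genes. Beside Oprk1, the opioid list had Pdyn and Penk, the genes of opioid peptide precursors, lower in members than in all other spots (background 1.84%). Pdyn was at 4.196, 7.86, 7.33 and 11.996 CPM in the Nr4a2/Ntng2-led and 13.3, 25.5, 15.7 and 31.3 CPM in the Ccn3/Syt17-led subset, a call that was lost under 12 of 17 alternatives and a direction that turned when Ccn3 was left out of the score. Oprm1, the mu opioid receptor gene, was lower in the Ccn3/Syt17-led subset, at 24.9, 8.73, 13.4 and 10.01 CPM against 53.2, 35.1, 38.01 and 44.2 CPM. Sstr2 and the muscarinic receptor gene Chrm2 were higher in the first subset than in the second among 10 modulator receptors that passed (background 1.09%). Chrm2 was at 37.5, 10.5, 23.7 and 10.97 against 13.3, 4.29, 6.83 and 1.71 CPM. The call of Chrm2 was lost under 5 of 17 alternatives, which were without set 4 (least extreme log2 ratio 0.96), without Ccn3 (0.83), Nr4a2 (0.83) or Ntng2 (0.98) in the score and at a threshold of 1.0 (0.94). Drd2 was lower in members, at 9.43, 4.96, 12.4 and 6.99 CPM against 89.1, 121, 85.9 and 51.1 CPM.

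Of 7 serotonin receptor genes that passed, Htr1b was lower in members (background 1.84%). Its level was 9.99, 5.74, 6.71 and 1.996 CPM in members against 29.5, 17.1, 24.96 and 9.89 CPM in all other spots. Htr7 was lower in the Nr4a2/Ntng2-led subset, at 2.697, 4.58, 4.15 and 2.06 CPM against 20.4, 12.5, 14.9 and 22.1 CPM (background 1.19% of 9995 genes lower). Htr2a was at 66.5, 29.8, 38.1 and 24.7 CPM in the first subset and 31.8, 16.5, 33.3 and 10.7 CPM in the second, and Htr2c at 44.1, 35.03, 44.2 and 26.05 and 64.7, 21.3, 65.2 and 25.6 CPM, with no call for either. Neither reached a 2-fold difference between the subsets in all 4 sets.

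The families of the rule genes gave few calls. Of the other Nr4a genes, Nr4a1 was at 93.7, 166, 53.9 and 225 CPM in members against 63.5, 141, 48.8 and 166 CPM and Nr4a3 at 35.3, 56.5, 28.1 and 59.04 against 21.2, 43.6, 18.7 and 42.1 CPM, and neither was called. Among the netrin-G genes, Ntng1, the paralogue of Ntng2, was at 17.3, 17.03, 23.9 and 21.4 CPM against 44.7, 20.6, 28.2 and 66.6 CPM. The netrin-G ligand gene Lrrc4 was at 98.2, 179, 94.1 and 165 CPM against 68.2, 130.3, 84.7 and 109.97 CPM, and 0 of 4 genes of the list were called. Of 13 other synaptotagmins, Syt2 alone was lower in members (background 1.84%), and 0 were higher. Syt2 was at 16.2, 18.01, 16.6 and 21.2 against 52.1, 66.6, 50.1 and 78.2 CPM. The 4 other CCN genes did not pass the filter against all other spots.

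Celsr3, the gene that is heterozygous in 2 of the mice, encodes an adhesion receptor of the cadherin family needed for axon tract formation. It was at 39.4, 50.5, 30.1 and 52.5 CPM in members and 31.4, 46.4, 25.8 and 46.7 CPM in all other spots of sets 1 to 4. Members were above the other spots in every set, by 1.09 to 1.25 times, and neither subset was above the other in all 4. Of the 7 Celsr and planar polarity genes that passed the filter 0 were called, and the list medians were 0.32, 0.21, 0.19 and 0.16. Celsr2 was at 231, 196, 227 and 183 CPM in members against 182, 169.6, 199 and 156 CPM. The genotype behind each set is not known, so the differences between sets say nothing of Celsr3 dosage.

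Fos, an immediate-early gene induced by neuronal activity, differed more between barcode sets than between areas. It was at 18.9, 82.9, 11.04 and 90.98 CPM in members and 15.8, 63.7, 9.16 and 87.95 CPM in all other spots, high in sets 2 and 4 inside and outside the members. Of 10 immediate-early genes that passed, 0 were called in members. Egr2 was higher in the Ccn3/Syt17-led subset than in all other spots, at 8.75, 38.5, 6.83 and 46.4 against 2.899, 17.97, 2.297 and 14.8 CPM, and higher than in the Nr4a2/Ntng2-led subset, at 2.098, 10.1, 2.69 and 13.02 CPM. The latter call was lost under 5 of 17 alternatives, and without Nr4a2 in the score its least extreme log2 ratio went from -1.09 to -0.11. Arc ran the other way in every set, with 199, 470.1, 167 and 856 CPM in the Nr4a2/Ntng2-led and 108, 388, 62.9 and 408 CPM in the Ccn3/Syt17-led subset, without reaching 2-fold in all 4.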

How the data were processed

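The authors deposited raw counts as a single table with 19465 genes as its rows and 12602 spots as its columns, checked to hold whole numbers of at least 0. Space Ranger and Seurat are named in the submitters' processing notes. Which genome build and probes were used, and whether spots were filtered, is not given in the sources used here. The members and the gene lists were chosen with earlier results of these data known. Removing spots under 500 counts left out 1 spot. Counts were summed per area and barcode set and given per 1000000 counts (CPM), with a pseudocount of 1 CPM for log2 ratios, a filter of a mean of 10 CPM and the rule genes left out of counts of calls. Shares have exact Clopper-Pearson intervals. A count of 0 allows 3 counts. Probes cover part of a transcript, so levels are not compared between genes, and related genes may share probes.

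The planned test of genotype was not run, as the barcode sets carry no sample. Named genes were the listed genes, the 25 highest and 10 lowest against all other spots, the 10 highest and 10 lowest against the layer areas, and the 10 with the widest range over sets. Genes of the member subsets were chosen after their values were seen. Alternatives were other thresholds, z within a set, a minimum of 2000 counts, no layer 6b limit, each marker or set left out, other filters, a pseudocount of 10 CPM, means of per-spot CPM, and TMM or RLE scaling (edgeR 4.0.16, R 4.3.3). The steps were tested on simulated data. Other steps used Python 3.11.15, numpy 2.4.6, scipy 1.17.1, pandas 2.3.3 and matplotlib 3.10.9.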

Additional observations from a re-analysis of the deposited data

How the results depend on the processing

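No paired analysis was possible because the barcode sets carry no replicate number and no genotype. The share of spots that were members, in sets 1 to 4, was 4.81%, 9.97%, 4.91% and 9.05% at a marker threshold of 1.0, and 1.73%, 4.17%, 2.09% and 4.77% at 1.5. With z within each set it was 4.91%, 5.20%, 5.02% and 5.43%, and with no layer 6b limit 4.22%, 8.87%, 4.12% and 9.08%. Without Ccn3 in the score the shares were 2.06%, 5.16%, 2.82% and 5.77%, and without Nr4a2 5.20%, 10.6%, 5.23% and 8.20%. Without Syt17 set 2 gave 6.16%, and without Ntng2 sets 1 and 3 gave 4.06% and 4.41%. Leaving out a set gave shares of 2.62% to 3.83%, 6.30% to 8.16%, 3.14% to 4.38% and 6.50% to 7.59%. Splitting members by an Nr4a2 z above 1 put 52.6% of set 4 in the first subset.

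The 28 genes higher in members than in all other spots became 49 without Nr4a2, 53 with means of per-spot CPM and 15 with a pseudocount of 10 CPM, and 26 to 39 with a set left out. The 184 lower genes became 111 without Ccn3, 119 without Syt17, 302 with no filter, 63 with a filter of 50 CPM and 86 with a pseudocount of 10 CPM, and 179 to 218 with a set left out. The 194 genes apart between the subsets became 109 without Ccn3, 127 without Nr4a2, 78 with a filter of 50 CPM and 107 with a pseudocount of 10 CPM, and 203 to 234 with a set left out. The 113 genes apart from layer 6-marker spots and the 308 apart from layer 6b-marker spots stayed within 1.5 times under the fewer alternatives run for them. These were TMM scaling, no filter, other thresholds for the layer area and each set left out. Leaving out a marker, a filter of 50 CPM, a pseudocount of 10 CPM and means of per-spot CPM were not run for these 2 counts. TMM or RLE scaling raised the median log2 ratio of all genes between members and other spots by 0.07 to 0.15, and gave 39 higher and 143 lower genes (TMM) or 40 and 142 (RLE).

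With no filter, 31 listed genes were at least 2-fold apart in all 4 sets between members and all other spots. Of these, 19 stayed so under all 15 alternatives run. The 31 include Drd1, Drd5, Foxj1 and Htr4, and the 19 include Htr4. These genes did not pass the filter and are not calls. Between the subsets, 26 chosen genes were run through 17 alternatives. Of the 24 called, 4 were called under all of them (Gnb4, Oprk1, Wfs1 and Sstr2). Other genes described were not run, among them Tpbg, B3gat2, Lypd6b, Col11a1, Rgs12, Plxnd1, Bhlhe22 and Tafa1. Otof and Pdyn turned direction without Ccn3 in the score, with least extreme log2 ratios of 0.22 and 0.036. The cause was not tested. Set 4 had the lowest depth, and genes under 10 CPM rest on few counts there.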

Other observations

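Some genes differed far more between barcode sets than between members and other spots. Gm10260 was at 2.95, 142.5, 136 and 289 CPM in the members of sets 1 to 4 and at 2.77, 149, 135 and 289 CPM in all other spots. H2-D1, a major histocompatibility class I gene, was at 27.4, 11.4, 22.0 and 0.143 CPM in members and 32.5, 18.1, 36.2 and 0.466 CPM elsewhere. Me1, the cytosolic malic enzyme gene, had 0 counts in members of set 4 and was at 23.2, 8.96 and 21.6 CPM in those of sets 1 to 3. Amd1 had 0 counts in set 3, inside and outside the members, against 22.7, 16.3 and 39.8 CPM in members of sets 1, 2 and 4. Pkig, a protein kinase inhibitor gene, was at 17.5 CPM in members of set 3 and 148, 260.2 and 156 CPM in those of sets 1, 2 and 4.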
